A study of Mus musculus with 20 samples.

Results

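The histone modifying enzymes described here are 76 of the 18193 genes on the array. They are the genes whose platform symbol belongs to the families Kdm1 to Kdm8, Kmt2, Kmt5, Setd, Ezh, Ehmt, Suv39h, Hdac, Sirt, Prmt and Kat, together with Eed, Suz12, Setdb1, Dot1l and Nsd1; 2 genes that match the pattern were left out by the same rule. Each gene was read from its brightest probe set over all 20 arrays, among 187 probe sets in all. The symbol pattern and the probe set choice use no difference between groups. The genes themselves were, however, chosen with earlier results of these data known. Of the 76 genes, 74 passed a filter on low signal, which kept a gene when the highest of its 10 group means reached 3.95 on the log2 scale. The other 2, the demethylase gene Kdm4d and the sirtuin gene Sirt4, stayed below that level in every group, with group means of 2.36 to 3.39 and 0.24 to 2.45, and were not tested.

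Histone proteins carry small chemical marks that other proteins read. Methyltransferases add methyl groups to lysine (Kmt, Setd, Ezh, Ehmt, Suv39h) or arginine (Prmt), and lysine demethylases (Kdm) take the lysine methyl groups off. Acetyltransferases (Kat) add acetyl groups, and deacetylases (Hdac and the NAD-dependent sirtuins) remove them. Methylation of H3K4 is found at active promoters, and methylation of H3K9 and H3K27 at silent chromatin. Primordial germ cells are known for lowering H3K9 dimethylation and raising H3K27 trimethylation early in their development, and Blimp1, Prdm14 and Tfap2c are transcription factors needed for that lineage.

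Signal was measured on 20 arrays from 5 cultured mouse cell lines at 2 stages, with 2 arrays a group, described by the submitters as biological duplicates. The cells are embryonic stem cells labelled male, of mixed C57BL/6 and 129 background. All 5 lines carry the reporters Blimp1-mVenus and stella-ECFP and the doxycycline-dependent activator rtTA in Rosa26; the parental line, BVSCR26rtTA, has no factor transgene. The other lines add tetO-driven piggyBac transgenes: the 3-factor line (clone 3-3, called BP14A in the labels) carries Avi-tagged Blimp1, 3xFLAG-tagged Prdm14 and V5-tagged Tfap2c, and the Blimp1 (B, clone 2-4), Prdm14 (P14, clone 7-109) and Tfap2c (A, clone 8-2) lines carry 1 of them each. The stages were epiblast-like cells (EpiLCs) after 36 h of induction, and aggregates of 2000 cells a well after 24 h in GK15 medium with doxycycline at 1.5 ug/ml, here called day 1. Each line is 1 clone, so the effect of a factor and of its clone cannot be told apart. No aggregates without doxycycline were analysed here. Lines are named by their labels.

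A gene rose or fell, in what follows, when its Benjamini-Hochberg adjusted p in limma, over all 13986 genes tested, was under 0.05. Changes of at least 2-fold, a log2 difference of 1, are counted apart. Errors of differences are limma standard errors (SE), and levels are log2 signal, array 1 and then array 2. The 2 arrays a group limit the precision. P-values rest on the spread between the 2 arrays of a group, pooled for each gene over all 10 groups. Array medians lay between 4.59 and 4.86.

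All 6 epiblast markers were above the filter level in every group. Their summed log2 signal was 69.4 in the parental line on day 1 and 60.3, 64.8, 66.8 and 69.1 in the 3-factor, Prdm14, Blimp1 and Tfap2c lines. Of 6 early germ cell markers, 5 were found, and their sums in the same order were 30.9, 47.9, 43.4, 39.5 and 30.8; 2 of the 5, Prdm1 (Blimp1) and Tfap2c, are also genes of the transgenes. Within the epiblast list, Pou3f1 was at 11.68 in the parental and 6.81 in the 3-factor line and Dnmt3b at 13.21 and 9.87, while Sox2 was at 10.71 and 12.55 and Pou5f1 at 12.49 and 12.50. The brightest of 3 Tfap2c probe sets read 6.38 and 6.29 in the parental line on day 1, 11.55 and 11.58 in the 3-factor, 9.38 and 9.81 in the Blimp1 and 10.70 and 10.91 in the Prdm14 line. In the line labelled Tfap2c it read 5.80 and 6.08, below both parental arrays, and the other 2 probe sets were below the parental arrays there too. The probe set of Prdm1 read 4.90 and 5.01 in the parental, 6.25 and 6.47 in the Blimp1, 7.23 and 7.39 in the Prdm14 and 8.63 and 8.71 in the 3-factor line. That of Prdm14 read 3.21 and 3.80 in the Prdm14 and 3.40 and 4.67 in the 3-factor line, against 3.59 and 3.67 in the parental line. Whether these probe sets lie within the transgenes is unknown here, so they check no label. Expression of the transgenes was not shown for any line. Fibroblast markers summed to between 24.4 and 29.8, with Col1a1 and Postn below the filter level in every group. The other 4, Col1a2, Col3a1, Dcn and Thy1, were above it in every group. Thy1 was at 7.07 in the parental line on day 1, 4.03 in the 3-factor and 4.44 in the Prdm14 line. It was at 7.06 in the Blimp1 and 6.92 in the Tfap2c line. Between 1 and 4 of 4 endoderm markers, and 1 or 2 of the 3 mesoderm markers found, were above the filter level, depending on the group. The part of these shifts in the enzyme results was not tested. In these bulk samples fewer cells of a type and less RNA per cell cannot be told apart. All lines are labelled male. Yet the Y-linked gene Eif2s3y had a mean EpiLC signal of 9.49 in the parental line against 1.68 in the Blimp1 and 4.61 in the Prdm14 line. It was at 7.26 and 7.90 in the 3-factor and Tfap2c lines. Uty, also Y-linked, had EpiLC means of 8.23 in the parental, 2.62 in the Blimp1 and 4.43 in the Prdm14 line. In the 3-factor and Tfap2c lines Uty was at 8.11 and 8.41, near the parental level. No enzyme gene described here lies on the Y chromosome, and Hdac6, Hdac8, Kdm5c and Kdm6a lie on the X chromosome. This covers only the genes that the rule kept, and not those it left out. Uty, a Y-linked relative of Kdm6a, lies outside this choice. On day 1 its means were 8.57 in the parental, 2.40 in the Blimp1 and 4.36 in the Prdm14 line. No test of Uty is given here. Whether the low Y-linked signal touches other family members outside this choice was not tested.

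On day 1 the enzyme genes differed most from the parental line in the 3-factor and Prdm14 lines, less in the Blimp1 line and not past the test in the Tfap2c line. The acetyltransferase gene Kat2b was higher with 3 factors or Prdm14, and the deacetylase gene Hdac6 and the H3K27 demethylase gene Kdm6b were lower. In the 3-factor line 9 of 74 enzyme genes rose, against 12.4% of all genes tested, and 16 fell, against 15.1%; 3 changed at least 2-fold, against 6.61%. The Prdm14 line had 7 that rose (background 8.85%), 16 that fell (15.1%) and 2 that changed 2-fold (5.36%). For the Blimp1 line the counts were 4 that rose (8.45%), 6 that fell (8.80%) and 1 that changed 2-fold (2.60%). The line labelled Tfap2c, in which Tfap2c signal was not above the parental level, gave 0 calls by limma, against 0.0143% of all genes that rose, 0.0715% that fell and 0.0286% that changed 2-fold, and 4 enzyme genes had an unadjusted p under 0.05; the 74 differences lay between -0.39 and 0.18. These 4 comparisons share the parental arrays.

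As a family the enzymes were called about as often as all genes, and their median difference was small in each line. In the 3-factor line that median was -0.05, against -0.02 over all genes tested. For the Prdm14 line the values were -0.05 and -0.04, and for the Blimp1 line 0.04 and 0.03. Of the 25 calls in the 3-factor line, 18 held with each of the 4 arrays left out in turn, and of the 23 in the Prdm14 line 12 held. The Prdm14 count was 13 without Prdm14 array 1 and also 13 without parental array 1. Of the 10 Blimp1 calls 4 held, for Hdac6, Hdac8, Hdac9 and Kat2b, and the count was 5 without Blimp1 array 1 and 6 without parental array 1. Counts by role are over 2 to 8 genes each and stand against the same shares of all genes.

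Some calls rested on the scale or the probe set. With array medians centred, the calls of Eed, Ehmt2, Kdm1a, Kdm4a, Kdm5c and Prmt7 ended in the 3-factor line and those of Prmt2 and Prmt9 in the Blimp1 line. For Prdm14 those of Eed, Hdac1, Hdac8, Kdm1a, Kdm4a, Kdm5c, Setdb1, Sirt1, Sirt3 and Sirt7 ended, and with quantile normalization 10 rose and 10 fell there. With the mean of all probe sets of a gene in place of the brightest, the calls of Eed, Ehmt2, Kat6b, Kdm1a, Kdm4a, Kdm7a, Kmt2e, Prmt7 and Prmt9 ended in the 3-factor line and those of Hdac9, Kmt2e, Prmt9 and Setd7 in the Blimp1 line. For Prdm14 those of Eed, Kat6b, Kdm1a, Kdm4a, Kmt2e, Kmt5c, Prmt9, Setd1b and Sirt7 ended. Of the 25 genes called in the 3-factor line 15 have other probe sets, and for 12 of these all probe sets had the same sign of difference. The like counts were 9 of 12 in the Prdm14 and 5 of 5 in the Blimp1 line, and for stage changes 9 of 13 (parental), 8 of 15 (3-factor), 9 of 20 (Blimp1), 6 of 9 (Prdm14) and 9 of 14 (Tfap2c). Group means of the 76 enzyme genes ranged over a median of 0.46 on the log2 scale. The range was at least 1 for 15 genes and under 0.3 for 11. Those 15 include Sirt4 (2.2) and Kdm4d (1.03), which were below the filter level in every group and not tested.

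**Figure D1:**
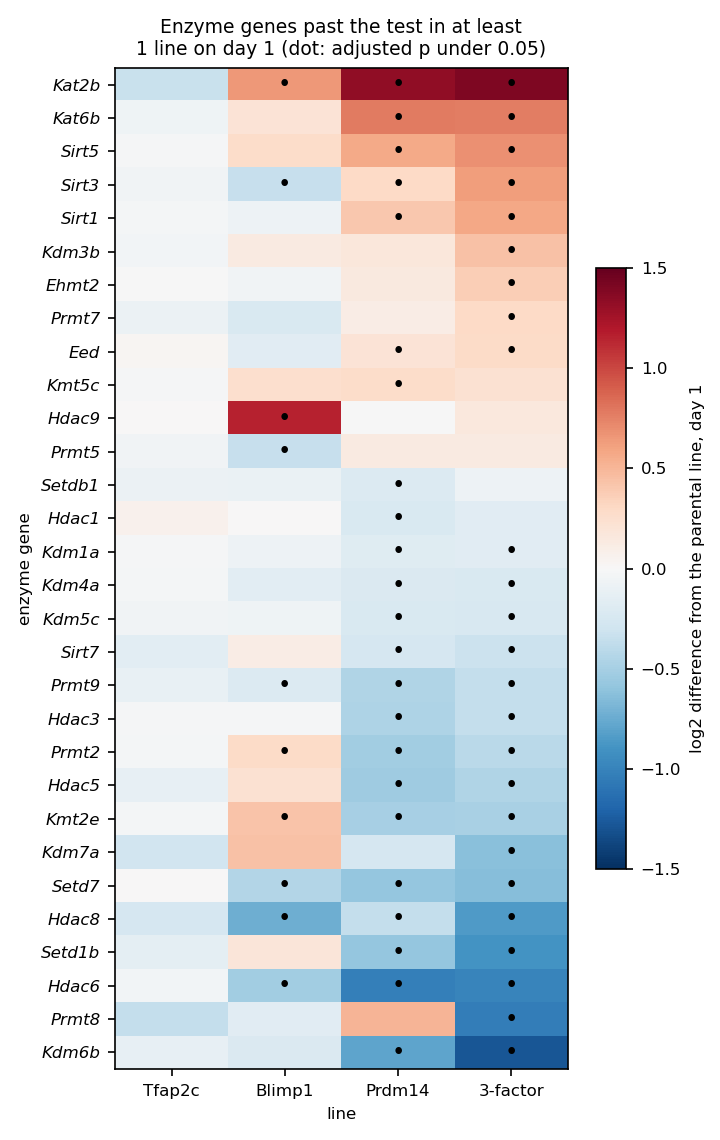
Log2 difference from the parental line on day 1 for the 30 enzyme genes past the test in at least 1 line, with lines on the horizontal axis, genes on the vertical axis and colour as the log2 difference. Dots mark an adjusted p under 0.05; Kat2b heads the list at 1.40 in the 3-factor line, and Kdm6b ends it at -1.28.

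Before doxycycline no enzyme gene differed from the parental line past the test. Among EpiLCs 0 of 74 enzyme genes passed limma's test against the parental line in any of the 4 lines. Over all genes the calls came to 0.0572% in the 3-factor, 0.236% in the Blimp1, 0.0644% in the Prdm14 and 0.0358% in the Tfap2c line. At an unadjusted p under 0.05 the enzyme counts were 1, 8, 2 and 8 in the same order. The EpiLC differences of the enzyme genes from the parental line lay between -0.47 and 0.62 over the 4 lines. The 4 lines were not tested against each other as EpiLCs; Prmt8 had the means 5.09 in the Tfap2c and 4.04 in the Prdm14 line.

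The largest day 1 rise among the enzyme genes of the 3-factor and Prdm14 lines was that of 1 acetyltransferase gene, Kat2b. It encodes PCAF, a coactivator that acetylates histone H3. Its day 1 levels were 8.32 and 8.19 in the parental line, 9.62 and 9.68 in the 3-factor line, 9.62 and 9.55 in the Prdm14 line, 8.92 and 8.88 in the Blimp1 line and 7.94 and 7.90 in the Tfap2c line. The 3-factor, Prdm14 and Blimp1 arrays were all above the parental arrays, without overlap, and the Tfap2c arrays were below them. The differences were 1.40 ± 0.09 (2.63-fold, adjusted p = 2.75e-07) with 3 factors, 1.33 ± 0.09 (adjusted p = 6.09e-07) with Prdm14 and 0.65 ± 0.09 (adjusted p = 0.000528) with Blimp1. In the Tfap2c line the difference of -0.34 did not pass (adjusted p = 0.399). EpiLC levels lay between 9.08 and 9.56 over the 10 arrays. Kat2b fell by 1.19 ± 0.09 in the parental line and by 1.29 ± 0.09 in the Tfap2c line between the stages (adjusted p = 1.58e-06 and 8.17e-07). It fell by 0.46 in the Blimp1 line, rose by 0.39 in the 3-factor line and changed by 0.04 in the Prdm14 line (adjusted p = 0.788). When all its probe sets were averaged in place of the brightest, the 3-factor and Blimp1 stage changes were 0.01 and -0.21 and did not pass.

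Kat6b, a MYST-family histone acetyltransferase, followed a like course. Its parental day 1 levels were 8.25 and 8.08, against 8.84 and 9.02 in the 3-factor line and 8.99 and 8.91 in the Prdm14 line. Every array of these 2 lines lay above both parental arrays. The differences were 0.77 ± 0.09 (adjusted p = 3.72e-05) and 0.79 ± 0.09 (adjusted p = 3.89e-05). In the Blimp1 line, with 8.39 and 8.35, the difference of 0.21 did not pass (adjusted p = 0.14). EpiLC levels were 8.99 to 9.27, and Kat6b fell by 1.02 ± 0.09 between the stages in the parental line. Averaged over all probe sets the day 1 calls ended, at 0.51 (adjusted p = 0.146) and 0.66 (adjusted p = 0.0651). The 7 acetyltransferase genes tested had a median difference of 0.12 in the 3-factor line. Of them 2 rose and 0 fell in the 3-factor and Prdm14 lines, and 1 rose in the Blimp1 line. Among all genes tested, 12.4%, 8.85% and 8.45% rose in the 3-factor, Prdm14 and Blimp1 lines. Kat2a, Kat5, Kat6a, Kat7 and Kat8 passed in none of these comparisons.

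Promoters are shown for 5 genes out of a larger number whose day 1 differences passed in both the 3-factor and the Prdm14 line. The 5 were picked by name, without a set rule, and do not stand for the rest. Each is given as 200 bases before the RefSeq start site (GRCm38.p6), 5′ to 3′ on the gene's strand. Capitals mark the letters GCCNNNGGC of the AP2 motif, which read the same on both strands, since Tfap2c is an AP2 protein and 1 of the factors. The positions are chr17:53566771-53566970 (+ strand) for Kat2b, chr14:21499570-21499769 (+ strand) for Kat6b, chrX:7947890-7948089 (- strand) for Hdac6, chr10:63339036-63339235 (- strand) for Sirt1 and chr13:43365335-43365534 (+ strand) for Sirt5. RefSeq's table holds 2 promoters each for Kat2b and Kat6b, of which 1 is shown.
Kat2b: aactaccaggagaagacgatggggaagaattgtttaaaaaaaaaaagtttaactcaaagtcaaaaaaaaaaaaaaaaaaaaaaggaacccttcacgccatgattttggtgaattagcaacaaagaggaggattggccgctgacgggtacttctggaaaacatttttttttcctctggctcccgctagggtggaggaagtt
Kat6b: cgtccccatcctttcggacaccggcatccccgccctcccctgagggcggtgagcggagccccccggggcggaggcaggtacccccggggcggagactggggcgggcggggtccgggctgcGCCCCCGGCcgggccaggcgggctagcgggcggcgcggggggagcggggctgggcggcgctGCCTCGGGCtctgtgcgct
Hdac6: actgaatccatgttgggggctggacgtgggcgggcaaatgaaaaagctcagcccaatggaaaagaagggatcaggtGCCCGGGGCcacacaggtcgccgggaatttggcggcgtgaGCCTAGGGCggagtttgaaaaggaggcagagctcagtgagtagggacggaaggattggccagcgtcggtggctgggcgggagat
Sirt1: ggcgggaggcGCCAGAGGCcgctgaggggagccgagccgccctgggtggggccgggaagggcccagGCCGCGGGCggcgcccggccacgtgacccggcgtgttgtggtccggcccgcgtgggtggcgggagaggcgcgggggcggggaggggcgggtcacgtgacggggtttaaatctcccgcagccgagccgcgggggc
Sirt5: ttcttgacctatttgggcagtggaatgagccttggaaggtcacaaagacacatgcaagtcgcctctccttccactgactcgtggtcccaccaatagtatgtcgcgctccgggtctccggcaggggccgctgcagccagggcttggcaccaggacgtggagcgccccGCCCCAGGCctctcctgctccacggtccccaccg

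The motif letters stood 2 times in the windows of Kat6b, Hdac6 and Sirt1, 1 time in that of Sirt5 and 0 times in that of Kat2b, whose window had 38.5% G and C against 82.0% for Kat6b. RefSeq's table held 83 promoters of 300 bases for 63 of the 76 genes, 250 before and 50 after the start. The AP2 letters were in 21 of them (25.3%), against 16.6% of all 32851 promoters in the table. Searched on both strands, the Blimp1 letters AGNGAAAG were in 2 (2.41%, against 8.63%), those of Setd1a and Setd5, and the Prdm14 letters GGTCTCTAA in 1 (1.2%, against 0.256%), that of Kdm4c. Letters in a window are a description and not a site. On day 1 Setd1a and Setd5 differed by -0.20 and 0.10 in the Blimp1 line and Kdm4c by -0.04 in the Prdm14 line, none past the test.

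**Figure D2:**
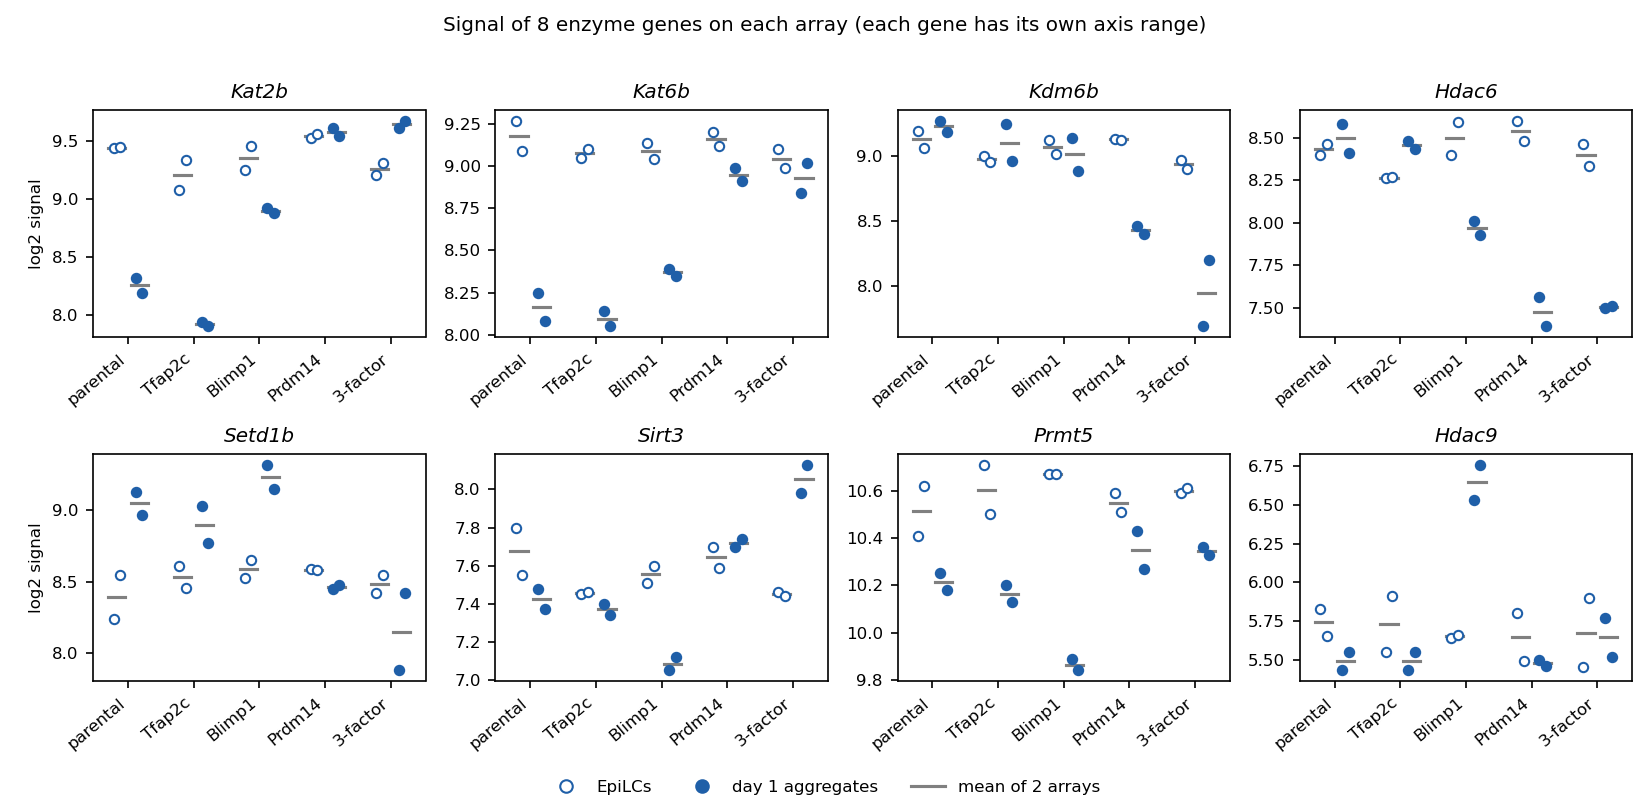
Log2 signal (vertical axis, own range for each gene) of 8 enzyme genes on each array of the 5 lines (horizontal axis), with open points for EpiLCs, filled points for day 1 aggregates and bars for the mean of 2 arrays. Kat2b on day 1 ranges from 7.90 in the Tfap2c line to 9.68 in the 3-factor line, and Hdac9 stands apart in the Blimp1 line on day 1.

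Of the classic deacetylase genes more fell than rose in the 3-factor and Prdm14 lines, as did more of all genes (15.1% fell in each, and 12.4% and 8.85% rose). Hdac6, a largely cytoplasmic deacetylase of tubulin, had day 1 levels of 8.58 and 8.41 in the parental line. Those of the 3-factor line were 7.50 and 7.51, of the Prdm14 line 7.56 and 7.39, and of the Blimp1 line 8.01 and 7.93. All 6 of these arrays were below both parental arrays, and the Tfap2c arrays at 8.48 and 8.43 lay within the parental range. The differences were -0.99 ± 0.09 (adjusted p = 3.98e-06), -1.02 ± 0.09 (adjusted p = 4e-06) and -0.53 ± 0.09 (adjusted p = 0.00158). The EpiLC levels were 8.26 to 8.60, and Hdac6 fell between the stages in these 3 lines, by 0.89, 1.07 and 0.53, while the parental change of 0.07 did not pass (adjusted p = 0.62).

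Hdac8, a class I enzyme that acts on cohesin, had the reverse stage course in the parental line. It rose there by 0.60 ± 0.09 (adjusted p = 0.000214), from 6.14 and 6.32 to 6.91 and 6.75. On day 1 it was at 5.97 and 6.00 in the 3-factor line, 6.01 and 6.18 in the Blimp1 line and 6.43 and 6.52 in the Prdm14 line. None of these arrays reached the parental ones. The differences were -0.85 ± 0.09 (adjusted p = 1.42e-05), -0.74 ± 0.09 (adjusted p = 0.000152) and -0.36 ± 0.09 (adjusted p = 0.0102); the Prdm14 call ended without Prdm14 array 1 or parental array 1 (adjusted p up to 0.0994). Hdac6 and Hdac8 are X-linked. As EpiLCs, where Y-linked signal was low in the Blimp1 and Prdm14 lines, Hdac6 was at 8.40 to 8.60 on the 4 arrays of these lines and at 8.40 and 8.46 in the parental line.

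Hdac3, the catalytic subunit of the NCoR and SMRT corepressor complexes, stood at 9.23 and 9.11 in the parental line on day 1. It was at 8.78 and 8.84 in the 3-factor line and 8.72 and 8.70 in the Prdm14 line, lower by 0.36 and 0.46 (adjusted p = 0.0022 and 0.000471). Hdac5, a signal-responsive class II enzyme, was lower by 0.45 and 0.54 in the same lines (adjusted p = 0.00106 and 0.000363). Its Blimp1-line levels of 8.22 and 8.15 lay above the parental 8.02 and 7.90, a difference of 0.23 that did not pass (adjusted p = 0.075). The closely related Hdac1 and Hdac2, catalytic subunits of the NuRD and Sin3 complexes, moved little. Hdac1 was at 11.67 and 11.69 in the parental line and 11.40 and 11.50 in the Prdm14 line, a call at -0.23 that ended without Prdm14 array 1 or either parental array (adjusted p up to 0.15). Hdac2 differences lay between -0.12 and 0.10 in the 4 lines, and none passed.

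Hdac9 was the exception in direction. This class II enzyme, known as a partner of MEF2 factors, had 6.53 and 6.76 in the Blimp1 line on day 1 and between 5.43 and 5.77 on the other 8 day 1 arrays. The difference from the parental line was 1.16 ± 0.17 (adjusted p = 0.000621). The 3-factor line, which also carries Blimp1, was at 5.77 and 5.52 and was lower than the Blimp1 line by 1.0 ± 0.17 (adjusted p = 0.000658). With the mean of all probe sets the Blimp1 difference from the parental line was 0.80 and did not pass (adjusted p = 0.119), nor did that between these 2 lines (-0.45, adjusted p = 0.354). By role, 2 of 5 class I and IV genes fell in the 3-factor line, 3 in the Prdm14 and 1 in the Blimp1 line, and 0 rose. Of the 6 class II genes 2, 2 and 1 fell, and 1 rose, in the Blimp1 line. Over all genes tested, 15.1%, 15.1% and 8.80% fell in the 3-factor, Prdm14 and Blimp1 lines, and 12.4%, 8.85% and 8.45% rose.

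Of the 6 sirtuin genes tested, 3 rose and 1 fell in both the 3-factor and the Prdm14 line, against 12.4% and 8.85% of all genes that rose and 15.1% that fell. The Sirt7 calls in both lines and the Prdm14 call of Sirt3 ended when 1 array was left out. Sirt1, a nuclear deacetylase, was at 10.24 and 10.33 in the parental line on day 1, 10.87 and 10.87 in the 3-factor line and 10.61 and 10.78 in the Prdm14 line. It rose by 0.59 ± 0.07 (adjusted p = 8.25e-05) and 0.41 ± 0.07 (adjusted p = 0.00156), with no overlap. The Prdm14 call was at the threshold when array medians were centred (adjusted p = 0.0502). Sirt5, a mitochondrial desuccinylase, had 7.14 and 6.93 in the parental line against 7.70 and 7.73 with 3 factors and 7.73 and 7.48 with Prdm14. It was higher by 0.68 ± 0.09 (adjusted p = 0.000124) and 0.57 ± 0.09 (adjusted p = 0.000623). As with Kat2b and Kat6b, its EpiLC levels (7.73 to 7.99) were above the parental day 1 levels, and it fell by 0.92 between the stages in the parental line.

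Sirt3, the main mitochondrial deacetylase, separated the 3-factor from the Blimp1 line. Day 1 levels were 7.48 and 7.37 in the parental, 7.98 and 8.13 in the 3-factor, 7.70 and 7.74 in the Prdm14 and 7.05 and 7.12 in the Blimp1 line. These ranges do not overlap. The 3-factor line was higher than the parental line by 0.63 ± 0.08 (adjusted p = 0.000128) and higher than the Blimp1 line by 0.97 ± 0.08 (adjusted p = 3.79e-06). The Blimp1 line was lower than the parental line by 0.34 (adjusted p = 0.0168), a call that ended without Blimp1 array 1 or parental array 1 (adjusted p up to 0.122). The Prdm14 call at 0.30 ended without either Prdm14 array or parental array 2 (adjusted p up to 0.155). Sirt7, a nucleolar enzyme, was lower by 0.33 and 0.26 in the 3-factor and Prdm14 lines (adjusted p = 0.0101 and 0.0396). That Prdm14 call ended without any 1 of the 4 arrays (adjusted p up to 0.225), and the 3-factor call without 3-factor array 1 or parental array 1 (up to 0.106). Over the 6 sirtuins tested the median difference was 0.52 in the 3-factor, 0.29 in the Prdm14 and -0.06 in the Blimp1 line, against -0.02, -0.04 and 0.03 over all genes.

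**Figure D3:**
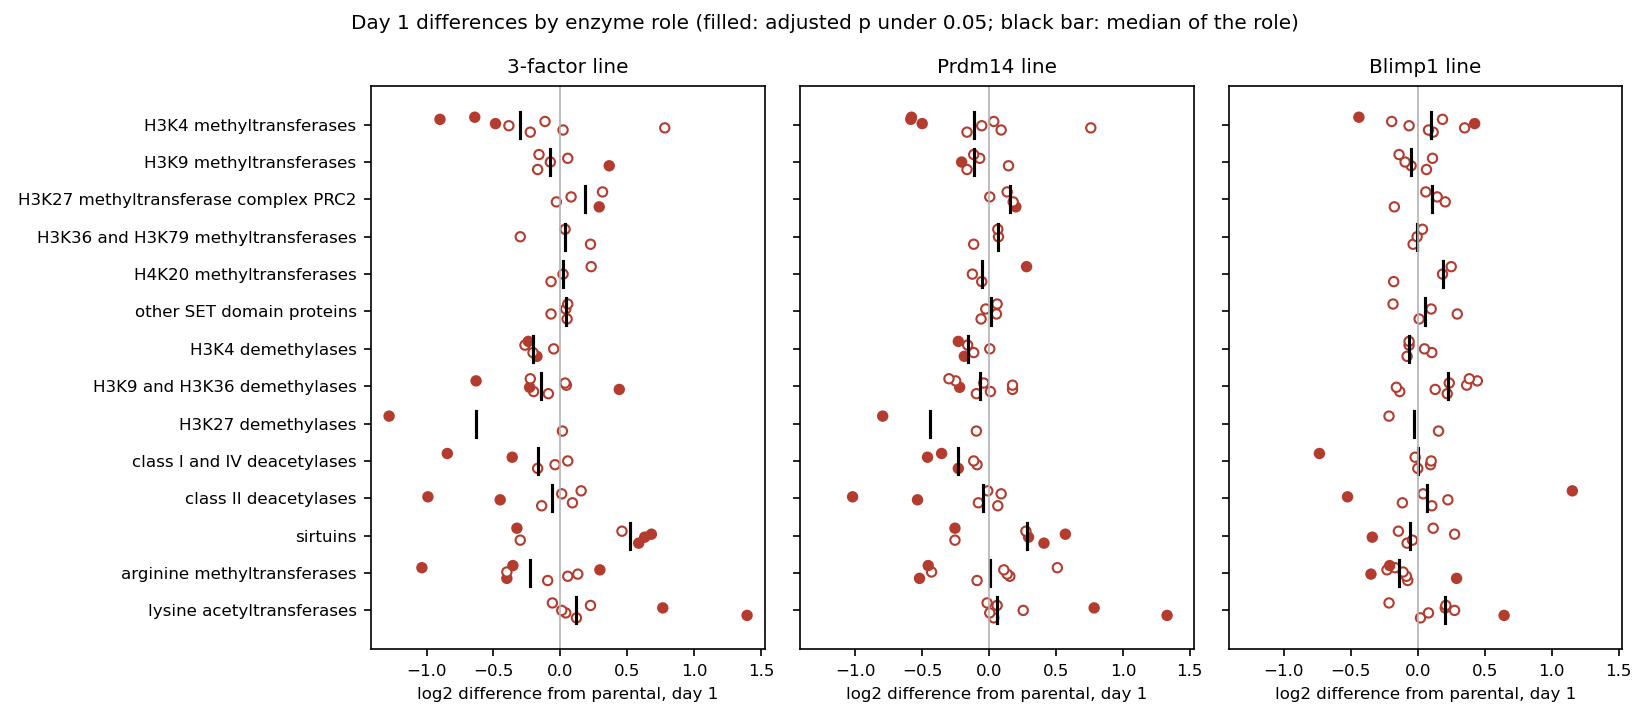
Log2 difference from the parental line on day 1 (horizontal axis) for each tested enzyme gene, by role (vertical axis), in the 3-factor, Prdm14 and Blimp1 lines. Filled points have an adjusted p under 0.05 and black bars are role medians; the sirtuin median is 0.52 in the 3-factor line and the H3K4 methyltransferase median -0.31.

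Of the 8 H3K4 methyltransferase genes, 3 fell and 0 rose in the 3-factor and Prdm14 lines, where 15.1% of all genes fell. Setd1b, a catalytic subunit of a COMPASS complex, was at 9.13 and 8.97 in the parental line on day 1, 7.88 and 8.42 in the 3-factor line and 8.45 and 8.48 in the Prdm14 line. All 4 arrays were below the parental pair. The differences were -0.90 ± 0.16 (adjusted p = 0.00111) and -0.59 ± 0.16 (adjusted p = 0.0191); the latter call ended without either Prdm14 array or parental array 1 (adjusted p up to 0.122). The Blimp1 arrays, at 9.32 and 9.15, lay above both parental arrays, but the difference of 0.19 did not pass (adjusted p = 0.497). Setd7, a lysine methyltransferase of histones and other proteins, had 10.25 and 10.31 in the parental line, and 9.55 and 9.73, 9.69 and 9.71, and 9.94 and 9.74 in the 3-factor, Prdm14 and Blimp1 lines. It was lower by 0.64, 0.58 and 0.44 (adjusted p = 0.000149, 0.000415 and 0.00495). The Blimp1 call ended without Blimp1 array 2 (adjusted p = 0.0522).

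Kmt2e, a family member with little or no methyltransferase activity of its own, moved in opposite directions between lines. Parental day 1 levels of 8.70 and 8.71 compared with 8.09 and 8.35 with 3 factors, 8.17 and 8.24 with Prdm14, and 9.17 and 9.09 with Blimp1. The differences were -0.49 ± 0.09 (adjusted p = 0.00201), -0.50 ± 0.09 (adjusted p = 0.002) and 0.43 ± 0.09 (adjusted p = 0.009). The Blimp1 call ended without Blimp1 array 1 or parental array 1 (adjusted p up to 0.0644). Averaged over its probe sets none of the 3 passed, at -0.26, -0.26 and 0.35 (adjusted p = 0.379, 0.391 and 0.266). Directly compared, the 3-factor and Prdm14 lines were lower than the Blimp1 line by 0.91 and 0.93 (adjusted p = 1.62e-05 and 1.44e-05). Kmt2a, Kmt2b, Kmt2d and Setd1a passed in no day 1 comparison with the parental line. Neither did Kmt2c, whose arrays scattered, at 8.29 and 7.93 in the parental and 8.26 and 9.52 in the 3-factor line.

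The enzymes of H3K9 and H3K27 methylation, the marks known for their change in germ cells, differed little on day 1. Ehmt1 and Ehmt2 encode the GLP and G9a subunits of the H3K9 dimethyltransferase. Ehmt1 was at 11 and 10.82 in the parental line and 10.67 and 10.81 in the 3-factor line, and its differences of -0.17 to 0.07 over the 4 lines did not pass. Ehmt2 was at 8.22 and 8.03 against 8.49 and 8.49, higher by 0.37 ± 0.09 in the 3-factor line (adjusted p = 0.0124). This call ended without either 3-factor array or parental array 2 (adjusted p up to 0.118), with array medians centred and with the mean of all probe sets (0.25, adjusted p = 0.322). Setdb1, which methylates H3K9 at retroelements, had 9.15 and 9.18 in the parental line and 8.92 and 9 in the Prdm14 line. Its call at -0.21 there (adjusted p = 0.0281) ended without Prdm14 array 1 or either parental array (up to 0.172), and the mean of its probe sets was 0.07. Setdb2 and Suv39h2, related H3K9 enzymes, did not pass in any line, with differences of -0.07 to 0.11 and -0.16 to -0.08. Suv39h1 was not analysed here. None of the 3 genes tested for H3K36 and H3K79 methyltransferases, nor of 4 other SET-domain genes, passed in a day 1 comparison. Of 3 H4K20 methyltransferase genes Kmt5c was called, at 0.28 in the Prdm14 line (adjusted p = 0.0314), and lost the call without Prdm14 array 1 or either parental array (up to 0.205).

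Polycomb repressive complex 2 writes H3K27 methylation, with Ezh2 or Ezh1 as its catalytic subunit and Eed and Suz12 as core partners. Ezh2 was at 10.47 and 10.62 in the parental line on day 1 and between 10.49 and 10.72 in the other lines, and none of its differences passed. The Ezh1 levels were 7.99 and 7.93 in the parental line, and its differences from -0.27 to 0.21 did not pass. Suz12 differences of -0.08 to 0.32 did not pass either. Eed rose, with 10.54 and 10.57 in the parental line against 10.89 and 10.80 in the 3-factor and 10.82 and 10.69 in the Prdm14 line. Its differences were 0.29 ± 0.06 (adjusted p = 0.00415) and 0.20 ± 0.06 (adjusted p = 0.0369). Both calls ended with array medians centred (adjusted p = 0.119 and 0.376) and with the mean of all probe sets (0.915 and 0.933), and the Prdm14 call also without Prdm14 array 1 or either parental array.

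The H3K27 demethylases parted from each other. Kdm6b, also called JMJD3, was at 9.27 and 9.18 in the parental line on day 1, 7.69 and 8.20 in the 3-factor line and 8.46 and 8.40 in the Prdm14 line. The 4 arrays of these lines were below every parental, Blimp1 and Tfap2c array, whose lowest value was 8.88. Kdm6b was lower by 1.28 ± 0.15 (adjusted p = 3.27e-05) and 0.80 ± 0.15 (adjusted p = 0.00161). EpiLC levels were between 8.90 and 9.19, and the stage change was -0.99 ± 0.15 in the 3-factor line and 0.10 in the parental line (adjusted p = 0.649). Kdm6a, the X-linked UTX, was at 9.09 and 9.11 in the parental line and between 8.87 and 9.34 in the other lines, and no day 1 difference passed.

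Other demethylases changed by less. Kdm3b, an H3K9 demethylase, had 9.30 and 9.20 in the parental and 9.58 and 9.80 in the 3-factor line, higher by 0.44 ± 0.08 (adjusted p = 0.00107). Kdm7a, which acts on H3K9 and H3K27, was at 7.76 and 7.36 against 6.82 and 7.04, lower by 0.63 ± 0.21 (adjusted p = 0.0434). This call ended without either 3-factor array or parental array 1 (adjusted p up to 0.275). Of the 8 tested genes for H3K9 and H3K36 demethylases, 1 rose and 2 fell in the 3-factor line. In the Prdm14 line 1 fell, and in the Blimp1 line 0 passed. Among all genes tested, 12.4% rose and 15.1% fell in the 3-factor line. The shares were 8.85% and 15.1% in the Prdm14 line and 8.45% and 8.80% in the Blimp1 line. Of 5 H3K4 demethylase genes 2 fell in the 3-factor and Prdm14 lines, Kdm1a (LSD1) by 0.18 and 0.19 and Kdm5c by 0.24 and 0.23. Each of these 4 calls ended when an array was left out (adjusted p up to 0.255), and Kdm5c was at 0.18 and 0.21 with the mean of all its probe sets. The arrays concerned were parental array 1 for all 4, both 3-factor arrays and Prdm14 array 2 for Kdm1a, and 3-factor array 1 and Prdm14 array 1 for Kdm5c. Kdm4a, an H3K9 and H3K36 demethylase, was lower by 0.23 and 0.22 in these lines, calls that ended without parental array 1, 3-factor array 2 or either Prdm14 array (adjusted p up to 0.256).

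Of the 8 arginine methyltransferase genes tested, 1 rose and 3 fell in the 3-factor line. With Prdm14 0 rose and 2 fell, and with Blimp1 1 rose and 2 fell. Of all genes, 12.4% rose and 15.1% fell in the 3-factor, 8.85% and 15.1% in the Prdm14 and 8.45% and 8.80% in the Blimp1 line. Prmt2, an asymmetric enzyme and coactivator, was at 8.57 and 8.51 in the parental line on day 1, 8.13 and 8.15 in the 3-factor, 8.07 and 7.97 in the Prdm14 and 8.87 and 8.79 in the Blimp1 line. It was lower by 0.40 ± 0.07 (adjusted p = 0.00123) and 0.52 ± 0.07 (adjusted p = 0.000217) in 2 lines and higher by 0.29 (adjusted p = 0.0166) in the Blimp1 line. The Blimp1 call ended without Blimp1 array 1 or either parental array (adjusted p up to 0.11). Prmt5, which makes symmetric dimethylarginine and is known as a partner of Blimp1 in germ cells, was at 10.25 and 10.18 in the parental and 9.89 and 9.84 in the Blimp1 line. The Blimp1 arrays were the lowest of all 20, and the difference was -0.35 ± 0.09 (adjusted p = 0.0158). That call ended without either Blimp1 array or parental array 1 (adjusted p up to 0.103). The 3-factor line was higher than the Blimp1 line in Prmt5 by 0.48 ± 0.09 (adjusted p = 0.00118), and its difference of 0.13 from the parental line did not pass.

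Prmt9, which methylates a splicing factor, was at 8.25 and 8.20 in the parental line on day 1. It was at 7.90 and 7.84 with 3 factors, 7.78 and 7.76 with Prdm14 and 7.99 and 8.04 with Blimp1, below both parental arrays in each. The differences were -0.36, -0.46 and -0.21 (adjusted p = 0.000574, 0.000109 and 0.0272). The Blimp1 call ended without any 1 of the 4 arrays (adjusted p up to 0.151), and with the mean of all probe sets none of the 3 passed (adjusted p = 0.145, 0.109 and 0.228). Prmt8, a brain-enriched enzyme, was near the filter level, at 4.29 and 4.70 in the parental and 3.61 and 3.31 in the 3-factor line. It was lower by 1.04 ± 0.22 (adjusted p = 0.00345), and since the 3-factor mean of 3.46 was below the filter level the size is approximate. Prmt7, with 0.30 in the 3-factor line (adjusted p = 0.0461), lost its call without 3-factor array 1 or either parental array (up to 0.296). Prmt1, the main asymmetric enzyme, had the smallest range of group means of the 74 tested genes, from 12.51 to 12.61.

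Among the factor lines on day 1, 3 of 74 enzyme genes differed between the 3-factor and Prdm14 lines, against 6.19% of all genes tested. They were Prmt8 at -1.55 ± 0.22 (adjusted p = 0.0013), Hdac8 at -0.49 ± 0.09 (adjusted p = 0.00529) and Sirt3 at 0.34 ± 0.08 (adjusted p = 0.0372), 3-factor minus Prdm14. The 3-factor level of Prmt8 was below the filter level, so the size of its difference is approximate. The Hdac8 call ended without Prdm14 array 2 (adjusted p = 0.0533) and the Sirt3 call without either Prdm14 array or 3-factor array 2 (up to 0.256). The count was 1 without Prdm14 array 2. Between the 3-factor and Blimp1 lines 26 differed, against 28.2%, and between the Prdm14 and Blimp1 lines 26, against 29.2%. The largest differences of the 3-factor from the Blimp1 line were in Setd1b (-1.09 ± 0.16), Kdm7a (-1.08 ± 0.21), Kdm6b (-1.07 ± 0.15) and Hdac9 (-1.0 ± 0.17). With each of the 4 arrays left out in turn, 18 of the 26 calls against Blimp1 held for the 3-factor line and 14 of 26 for the Prdm14 line.

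Between EpiLCs and day 1, from 21 (Prdm14 line) to 31 (Blimp1 line) of the 74 enzyme genes passed the test. In the parental line, which has no factor transgene, 14 of 74 enzyme genes rose between the stages, against 22.0% of all genes tested, and 11 fell, against 12.6%. At least 2-fold changes were 4, against 6.56%: Prmt2 and Sirt2 rose, and Kat2b and Kat6b fell. The count of 25 was 13 without parental EpiLC array 1 and 16 without parental day 1 array 1, and with quantile normalization 9 rose and 16 fell. With array medians centred 11 rose and 5 fell.

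The other lines gave like counts. With 3 factors 14 rose (background 23.2%), 13 fell (17.8%) and 4 changed 2-fold (10.5%), and with Blimp1 19 rose (24.2%), 12 fell (18.0%) and 3 changed 2-fold (9.66%). For Prdm14 11 rose (19.2%), 10 fell (15.8%) and 2 changed 2-fold (7.96%), and for Tfap2c 13 rose (20.5%), 10 fell (12.3%) and 3 changed 2-fold (6.08%). With quantile normalization the splits were 11 and 17 in the 3-factor, 15 and 17 in the Blimp1 and 9 and 12 in the Tfap2c line, and with array medians centred 13 and 14 in the Blimp1 line. Median stage changes of the enzyme genes were -0.05 (3-factor and Prdm14) to 0.07 (parental), against 0.02 to 0.06 over all genes tested. These 5 comparisons share no array. In all 5 lines the same 5 genes rose, Prmt2, Sirt2, Kat5, Kmt5c and Setdb1, and 1 fell, Kdm4a. These are 6.76% and 1.35% of the enzyme genes, against 9.01% and 5.18% of all genes tested that rose or fell in all 5. At the other end, 26 of the 74 enzyme genes (35.1%) passed in none of the 5 lines, against 35.8%.

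Prmt2 and Sirt2 rose by at least 2-fold in 3 and 4 of the 5 lines. In the parental line Prmt2 went from 7.26 and 7.28 to 8.57 and 8.51, and in the Tfap2c line from 7.31 and 7.46 to 8.56 and 8.45. The stage changes were 1.27 ± 0.07 in the parental, 1.12 in the Tfap2c, 1.38 in the Blimp1, 0.89 in the Prdm14 and 0.79 in the 3-factor line, with adjusted p from 5.11e-08 to 3.25e-06. Sirt2, a cytoplasmic deacetylase of tubulin and H4K16, rose in the parental line from 5.81 and 6.15 to 7.04 and 7.11. Its changes were 1.10 ± 0.13, 1.27, 1.25, 1.08 and 0.91 in the same order of lines, with adjusted p from 7.51e-06 to 9.15e-05. In every line both day 1 arrays of each gene were above both EpiLC arrays.

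The other genes of this kind changed by less. Kat5 (TIP60), an acetyltransferase of H4 and H2A, rose by 0.23 to 0.38, Kmt5c, which trimethylates H4K20, by 0.27 to 0.52, and Setdb1 by 0.21 to 0.44. In the parental line the Kat5 call ended without EpiLC array 1 or day 1 array 1 (adjusted p up to 0.136), and the Kmt5c call without any 1 of the 4 arrays (up to 0.131). Setdb1 did not hold with the mean of its probe sets, at -0.08 in the parental line, and its Prdm14 call ended without either EpiLC array or day 1 array 2 (up to 0.122). Kdm4a fell by 0.20 to 0.45, with a mean over its probe sets of 0.42 in the parental and 0.63 in the 3-factor line. Its calls ended without 1 array in the parental, Blimp1 and Tfap2c lines (adjusted p up to 0.211).

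Kat2b fell 2-fold in 2 lines, parental and Tfap2c, and each of the remaining 2-fold stage changes was called in 1 line at that size. Kmt2e rose by 1.16 ± 0.09 in the Blimp1 line (adjusted p = 1.27e-06), from 7.96 and 7.98 to 9.17 and 9.09, and by 0.76 in the parental line. In the 3-factor line Kdm5b, an H3K4 demethylase, fell by 1.06 ± 0.29 (adjusted p = 0.0111), from 10.58 and 10.66 to 9.82 and 9.31. The same gene changed by -0.59 to -0.74 in the other 4 lines, none of which passed. Kdm7a fell by 1.08 ± 0.21 in the 3-factor line (adjusted p = 0.00131) and by 0.60 to 0.88 in the parental, Prdm14 and Tfap2c lines, where each call ended without 1 array (up to 0.282). Kmt2c rose by 1.17 ± 0.40 in the 3-factor line (adjusted p = 0.0348), where its day 1 arrays were 8.26 and 9.52, and without day 1 array 2, or either EpiLC array, that call ended (adjusted p up to 0.342). The Kdm5b call ended without EpiLC array 2 or day 1 array 2 (up to 0.103). Prmt8 fell by 1.22 ± 0.22 in the 3-factor line, from 4.51 and 4.85, near the filter level, to 3.61 and 3.31, below it, so the size is approximate. It fell by 0.95 ± 0.22 in the Tfap2c line (adjusted p = 0.0053), a call that ended without day 1 array 1 (adjusted p = 0.0609), and rose by 0.97 ± 0.22 in the Prdm14 line (adjusted p = 0.00424), from 3.95 and 4.13 to 5.07 and 4.94.

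Paralogues differed between the stages as well. Eed fell in 4 lines, by 0.26 in the Prdm14 line to 0.69 in the Blimp1 line, and its change of -0.16 in the 3-factor line did not pass (adjusted p = 0.0606). Averaged over its probe sets none of the 4 calls held, and the Prdm14 call ended without day 1 array 2. Ezh2 fell by 0.25 in the parental and 0.30 in the Prdm14 line. Both Ezh2 calls ended without 1 array (adjusted p up to 0.223), which was either EpiLC array or day 1 array 1 in the parental line and EpiLC array 2 or day 1 array 1 in the Prdm14 line. Ezh1 rose instead, by 0.59 ± 0.08 in the Blimp1 line (adjusted p = 9.03e-05), 0.44 in the Prdm14 and 0.26 in the Tfap2c line. The parental change of 0.05 did not pass. These 3 lines started lower, with Ezh1 EpiLC means of 7.58, 7.71 and 7.44 against 7.91 in the parental line, though no EpiLC difference passed. On day 1 Ezh1 was at 7.70 in the Tfap2c line, below the parental 7.96. Its mean over all probe sets was -0.24 in the Blimp1 line, and the Tfap2c call ended without EpiLC array 1 or either day 1 array (adjusted p up to 0.226). Prmt5 fell by 0.81 ± 0.09 in the Blimp1 line (adjusted p = 1.26e-05), from 10.67 and 10.67, and by 0.26 to 0.44 in the parental, 3-factor and Tfap2c lines, of which the parental and 3-factor calls ended without 1 array (adjusted p up to 0.152). Kdm6a rose by 0.30 in the 3-factor and 0.28 in the Blimp1 line, and both calls ended without 1 array (adjusted p up to 0.216).

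**Figure D4:**
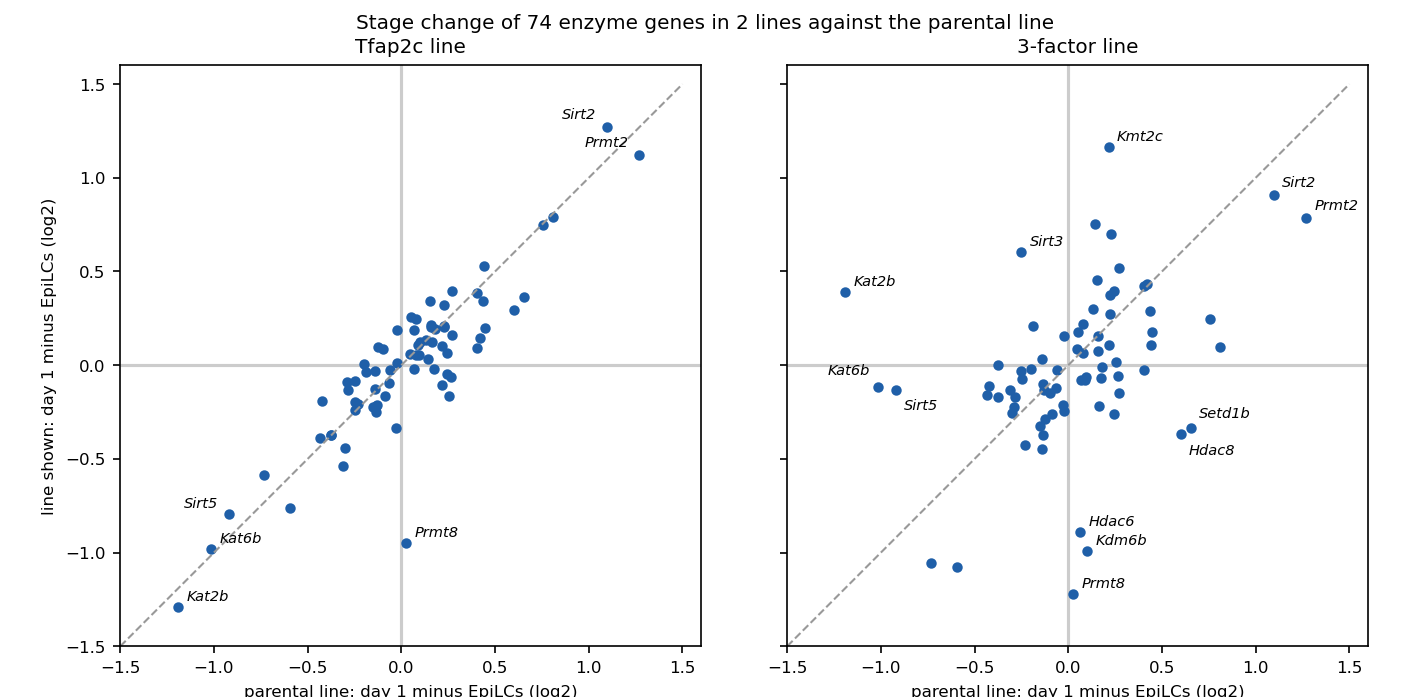
Log2 change from EpiLCs to day 1 of the 74 tested enzyme genes in the Tfap2c line (left) and the 3-factor line (right), on the vertical axes, against the parental line on the horizontal axes; the dashed line marks equal change. Kat2b is at -1.19 in the parental line and at -1.29 and 0.39 in the other lines.

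Whether a stage change differed from the parental one was tested as an interaction. It passed for 17 of 74 enzyme genes in the 3-factor line, against 18.7% of all genes tested, 10 for Blimp1 (8.69%), 14 for Prdm14 (12.1%) and 0 for Tfap2c (0.0%), where 2 had an unadjusted p under 0.05. The largest were Kat2b with 1.58 in the 3-factor line, Hdac9 with 1.25 in the Blimp1 line, and Kat2b with 1.23 and Hdac6 with -1.13 in the Prdm14 line; that of Prmt8 in the 3-factor line, -1.25, is approximate, since its day 1 level was below the filter level. The Blimp1 count was 4 without either Blimp1 EpiLC array and 5 without Blimp1 day 1 array 2, parental EpiLC array 1 or parental day 1 array 1. The Prdm14 count was 8 and 9 without Prdm14 EpiLC arrays 1 and 2, 9 without Prdm14 day 1 array 2, and 7 and 8 without parental day 1 arrays 1 and 2. Of the 17, 10 and 14 calls, 12, 3 and 7 held with each array left out.

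Genes outside these families were read in the same fits. They were partners and readers, PRC1 genes and 13 other methyltransferase and demethylase genes. Of 86 such genes tested, 14 rose and 14 fell in the 3-factor line on day 1. That is 16.3% each way, against 12.4% and 15.1% of all genes. For Prdm14 the counts were 10 and 10 (11.6% each, against 8.85% and 15.1%), for Blimp1 6 and 8 (6.98% and 9.30%, against 8.45% and 8.80%) and for Tfap2c 0 and 0. Jarid2, which recruits and tunes PRC2, rose by 1.03 ± 0.14 (adjusted p = 0.000133) in the 3-factor and 1.04 ± 0.14 (adjusted p = 0.000163) in the Prdm14 line. Yaf2, a PRC1 subunit, fell by 1.37 ± 0.09 (adjusted p = 2.02e-07) in the 3-factor line. In the Blimp1 line Phc2, another PRC1 subunit, and Mbd2, a NuRD subunit that binds methylated DNA, rose by 1.22 ± 0.14 (adjusted p = 0.000108) and 1.15 ± 0.12 (adjusted p = 5.51e-05). Ncoa3, a coactivator, rose by 1.04 ± 0.08 in the Prdm14 line (adjusted p = 1.67e-06). Between the stages 22.1% to 26.7% of the 86 rose in the 5 lines, against 19.2% to 24.2% of all genes tested. From 16.3% to 24.4% fell, against 12.3% to 18.0%. Phc2, the lysine methyltransferase gene Smyd2 and the H3K36 methyltransferase gene Nsd2 each rose by at least 2-fold in all 5 lines. The changes were 1.19 to 2.21 for Phc2, 1.01 to 1.85 for Smyd2 and 1.16 to 1.79 for Nsd2. For the genes outside these families, dependence on single arrays and on other probe sets is not given.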

How the data were processed

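RNA of 20 samples, 2 for each of 10 groups of line and stage, was read on Affymetrix GeneChip arrays. The deposited table holds log2 values of 45101 probe sets, as its range shows; the normalization and software of the authors are, in the sources used here, not given. The 64 control probe sets were left out. Genes were named from the platform annotation of 2016: 34945 probe sets list 1 gene, 932 several and 9160 none, and only the 34945 were used. The brightest probe set by mean over all arrays stood for each gene, and a gene was tested where its highest group mean reached the 40th percentile, 3.95, which left 13986.

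One limma model (version 3.58.1, R 4.3.3) with a mean for each of the 10 groups gave 20 contrasts, with Benjamini-Hochberg adjustment over all genes tested. The procedure was tested on simulated data. Genes given in full were those past the test by at least 2-fold against the parental line or between stages, and, whatever their values, the pairs Ezh1 and Ezh2, Ehmt1 and Ehmt2, Suv39h1 and Suv39h2, Kdm6a and Kdm6b, Hdac1 and Hdac2, and Setdb1 and Setdb2, with Prmt5; others were named where they led their role. Further genes called in a role were named after their values were seen. The enzyme genes, roles, partner and marker lists were chosen with earlier results of these data known. Tried instead were quantile normalization, centred array medians, no filter, the mean of all probe sets, an intensity trend, a replicate block and leaving out each array. Same-numbered arrays of different groups correlated by a median of 0.026 over 45 group pairs (-0.062 to 0.2), with 6 pairs over 0.1, so the numbers were not taken as pairs. Promoters came from RefSeq's table for GRCm38.p6, searched with Python 3.11.15.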

Additional observations from a re-analysis of the deposited data

Results flagged for a closer look

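The stage change of 41 combinations of gene and line differed from the parental stage change by limma's interaction test. The lines are compared with the same parental arrays. In the 3-factor line the change was higher than in the parental line for Kat2b (1.58), Kat6b (0.90), Sirt3 (0.86), Sirt5 (0.79), Sirt1 (0.62) and Kdm3b (0.47). It was lower there for Prmt8 (-1.25), Kdm6b (-1.09), Setd1b (-0.99), Hdac8 (-0.97), Hdac6 (-0.96), Setd7 (-0.72), Kmt2e (-0.51), Prmt2 (-0.49), Sirt7 (-0.42), Hdac3 (-0.39) and Prmt9 (-0.31). Of these 17 differences 12 held without each array in turn, and those of Hdac3, Kmt2e, Prmt8, Prmt9 and Sirt7 did not. The 3-factor day 1 level of Prmt8 was below the filter level, so the size of its difference is approximate.

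In the Prdm14 line the change was higher for Kat2b (1.23), Kat6b (0.81), Sirt5 (0.69), Ezh1 (0.39) and Sirt1 (0.36). It was lower for Hdac6 (-1.13), Kdm6b (-0.80), Setd1b (-0.78), Setd7 (-0.61), Kmt2e (-0.53), Hdac3 (-0.52), Hdac5 (-0.50), Prmt9 (-0.43) and Prmt2 (-0.38). Here 7 of 14 held without each array in turn: Hdac3, Hdac6, Kat2b, Kat6b, Prmt9, Setd7 and Sirt5. The Ezh1 mean was already lower as EpiLCs, at 7.71 against 7.91 in the parental line.

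In the Blimp1 line the change was higher for Hdac9 (1.25), Kat2b (0.74), Ezh1 (0.54), Sirt5 (0.46) and Hdac5 (0.41), and lower for Hdac8 (-0.72), Hdac6 (-0.59), Prmt5 (-0.51), Setd7 (-0.45) and Kat8 (-0.39). Those of Hdac8, Hdac9 and Kat2b, 3 of 10, held without each array in turn. Ezh1 was already lower as EpiLCs in the Blimp1 line, at a mean of 7.58 against 7.91 in the parental line. With the mean of all probe sets Hdac9 was at 0.02 and Kat2b at 0.91, and neither passed (adjusted p = 0.986 and 0.167). The cause of these differences was not tested.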

How the results depend on the processing

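Of 281 calls of an enzyme gene in a comparison, 204 held with array medians centred, 274 with an intensity trend, 157 with the mean of all probe sets, 243 without the filter, 248 with quantile normalization and 274 with a replicate block. The block left every count within 1.5 times its value, for example 24 in the 3-factor and 23 in the Prdm14 line against the parental line on day 1; the numbers do not pair the arrays. Counts that moved with array medians centred were 13 for Prdm14 on day 1, 16 for the parental stage change and 5 for the Blimp1 stage change against the parental one. With the mean of all probe sets they were 16 for the 3-factor and 14 for the Prdm14 line on day 1, 13, 15 and 15 for the Blimp1, Tfap2c and parental stage changes, and 3 each for the Blimp1 and Prdm14 stage changes against the parental one. Without the filter the Blimp1 count of that kind was 6, and with an intensity trend the count between the 3-factor and Prdm14 lines was 5. Quantile normalization gave 15 higher and 11 lower in the Prdm14 against the Blimp1 line, in place of 12 and 14.

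Leaving out each array in turn, with a lone array assumed to vary like the other groups, gave these ranges. Against the parental line on day 1 they were 19 to 24 (3-factor), 13 to 18 (Prdm14) and 5 to 9 (Blimp1). Stage changes gave 13 to 22 (parental), 18 to 25 (3-factor), 24 to 30 (Blimp1), 18 to 23 (Prdm14) and 16 to 19 (Tfap2c). Against the parental stage change they were 13 to 18 (3-factor), 4 to 10 (Blimp1) and 7 to 11 (Prdm14), and between lines 21 to 24 (3-factor and Blimp1), 1 to 4 (3-factor and Prdm14) and 18 to 20 (Prdm14 and Blimp1). Counts of 0 stayed 0.

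With the mean of all probe sets 17 calls changed sign. On day 1 these were Kdm5c at 0.18 (3-factor) and 0.21 (Prdm14), Setdb1 at 0.0667 (Prdm14) and Ezh1 at 0.04 between the 3-factor and Blimp1 lines. Stage changes were Setdb1 at -0.11 (Blimp1), -0.0333 (Prdm14) and -0.0817 (parental), Kdm3b at -0.22 (Blimp1) and -0.20 (parental), Kdm4a at 0.63 (3-factor) and 0.42 (parental), and in the Blimp1 line Ezh1 at -0.24, Setd7 at -0.17 and Prmt9 at 0.075. The others were Kat7 at -0.11 and Kdm5c at -0.17 in the Tfap2c line, and Prmt9 at 0.0067 for the 3-factor stage change against the parental one. The cause was not tested. The 2 arrays a group and 1 clone a line limit all comparisons.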
